A study of Mus musculus with 15 samples.

Results

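The genes described here are 10 mouse genes whose human counterparts lie at loci associated with the risk of late-onset Alzheimer's disease and whose proteins act mostly in endocytosis, endosomal sorting and cell adhesion. They are Bin1, Picalm, Cd2ap, Rin3, Sorl1, Fermt2, Ptk2b, Cass4, Abca7 and Mef2c. They were picked by symbol, with earlier results of these data known, and all 10 were found among the 46078 genes of the count table. All 10 also passed the filter on low counts, as did 18974 genes in all. RNA came from a brain region, which the labels do not name, dissected from 1 hemisphere of each of 15 mice, with 1 library per mouse. The groups were 5 APP-PS1 mice given an anti-CD8a antibody, 5 APP-PS1 mice given PBS and 5 wild-type (WT) mice, also given PBS. Mice of the APP-PS1 line carry 2 transgenes: Mo/HuAPP695swe, a mouse/human chimera of the amyloid precursor protein bearing the Swedish mutation, and PS1-dE9, a mutant form of human presenilin 1. The prion protein promoter drives both in neurons of the central nervous system. Treatment ran for 4 weeks in mice of 12 months, by 10 intraperitoneal injections of 0.8 mg antibody or 100 µL PBS. CD8a is a surface protein of cytotoxic T cells, the cells the antibody is aimed at. Both sexes were used. By the labels the males were treated replicates 1, 4 and 5, APP-PS1 PBS replicates 1, 2 and 3, and WT replicate 5. All other mice were labelled female, so the WT group held fewer males than either APP-PS1 group. An isotype antibody named in the treatment protocol was not analysed here, so antibody and PBS are the only injections compared.

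In clathrin-mediated endocytosis, adaptors gather cargo at the plasma membrane, clathrin forms a coat, curved BAR-domain proteins and dynamin help to bud and cut the vesicle, and Rab5 directs it to the early endosome. The amyloid precursor protein passes through these compartments, and its cleavage to amyloid-beta depends on where it is sorted. Integrins, which bind the extracellular matrix, are activated from inside the cell by talins and kindlins and signal through focal adhesion kinases and Cas-family scaffolds. In brain tissue several of the 10 genes are used by more than one cell type, so a bulk level is a sum over cells.

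Picalm, Rin3 and Cass4 had the smallest unadjusted p values of the 10 genes in the comparisons below, and their promoters are shown for that reason. Each run holds the 250 bases before the gene's first transcription start in RefSeq (build GRCm38.p6), 5′ to 3′ on the plus strand, with CG dinucleotides in capitals. The regions are chr7:90129963-90130212 (Picalm), chr12:102282824-102283073 (Rin3) and chr2:172393394-172393643 (Cass4).
Picalm: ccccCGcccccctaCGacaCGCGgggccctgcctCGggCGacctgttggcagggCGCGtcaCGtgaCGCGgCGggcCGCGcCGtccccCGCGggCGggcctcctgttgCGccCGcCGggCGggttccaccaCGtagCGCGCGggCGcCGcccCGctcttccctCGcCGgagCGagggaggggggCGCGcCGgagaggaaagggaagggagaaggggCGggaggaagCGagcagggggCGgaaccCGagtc
Rin3: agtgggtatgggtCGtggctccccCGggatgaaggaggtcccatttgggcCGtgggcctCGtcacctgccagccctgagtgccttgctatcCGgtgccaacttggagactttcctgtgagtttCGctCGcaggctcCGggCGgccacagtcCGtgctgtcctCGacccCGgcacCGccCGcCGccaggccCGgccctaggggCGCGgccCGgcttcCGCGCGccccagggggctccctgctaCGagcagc
Cass4: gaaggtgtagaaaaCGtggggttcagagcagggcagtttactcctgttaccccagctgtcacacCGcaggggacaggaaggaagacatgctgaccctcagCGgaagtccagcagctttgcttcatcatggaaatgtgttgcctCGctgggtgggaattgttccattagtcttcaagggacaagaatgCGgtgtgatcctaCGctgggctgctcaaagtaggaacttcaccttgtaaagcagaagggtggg
The runs contain 39 CG dinucleotides in Picalm, 23 in Rin3 and 6 in Cass4. Over the window of 300 bases that also takes in the 50 bases after the start, Picalm has 44 (GC content 78.0%), more than 97.8% of the 32851 mouse promoters in the same table, whose median is 7. Rin3 has 26 in that window (GC content 69.0%), and Cass4 has 6 (GC content 48.0%), close to the median. Of the 10 genes, 8 were matched in the promoter table. At their first starts Cd2ap has 41, Sorl1 and Fermt2 have 37 each, Abca7 has 19 and Mef2c has 1. The letters GAGGAAGT, a core recognised by the myeloid factor PU.1, were searched on both strands and occur in 3.20% of all promoters and in none of the windows of these 8 genes. No methylation or binding was measured here, so the sequences are given as a description.

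Library size, tissue markers and sex were checked before the 10 genes were read. Counts assigned to genes ranged from 17736524 to 36485809 per library, and 3 counts were worth 0.0822 to 0.169 CPM (read counts scaled to library size), a limit for counting error only. App, which the transgene adds to, was at 2467 to 3153 CPM in treated APP-PS1 mice and 2420 to 3036 CPM in APP-PS1 mice given PBS, against 1230 to 1324 CPM in WT mice. Ttr, the leading choroid plexus transcript, exceeded 1000 CPM in 5 libraries: anti-CD8a replicate 1, APP-PS1 PBS replicates 2 and 5, and WT replicates 3 and 5. The labelled sex matched sex-linked transcripts in 14 of 15 libraries; APP-PS1 PBS replicate 1, labelled male, had the female pattern. Among treated mice, replicate 3 stood apart in glial transcripts, with 53.2 CPM of the microglial gene Cst7 where the group median was 17.3 CPM. Neuronal markers were present at 9965 to 11557 CPM in sum over 12 genes in the 15 libraries, which matches the labelled tissue. The 8 T cell markers summed to 1.13 to 2.31 CPM in treated APP-PS1 mice, 1.27 to 2.10 CPM in APP-PS1 mice given PBS and 1.18 to 1.83 CPM in WT mice.

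The levels of the 10 genes spanned a wide range. Exon length was the union of all annotated exons of a gene, 4.12 kb in Bin1 and 15.7 kb in Picalm, so the order depends on the annotation. In CPM alone Picalm (mean 225) was above Bin1 (mean 206). Per kilobase of exon, Ptk2b had the highest level, 86.0 ± 9.92 CPM per kb (SD over the 15 libraries), and Cass4 the lowest, 0.142 ± 0.036 CPM per kb. Ptk2b encodes Pyk2, a calcium-responsive tyrosine kinase of the focal adhesion kinase family. Bin1 (50.0 CPM per kb) and Sorl1 (34.9 CPM per kb) came next, followed by Fermt2 (20.9 CPM per kb). Picalm (14.3 CPM per kb) and Mef2c (11.7 CPM per kb) were neighbours whose libraries overlapped, with Picalm above Mef2c in 13 of 15 libraries. Abca7 (4.24 CPM per kb) and Cd2ap (3.50 CPM per kb) were also close, and Abca7 was above Cd2ap in 13 of 15 libraries. Rin3 was at 0.415 CPM per kb. Each other gene was above the next in order in 15 of 15 libraries. The reads were aligned with Bowtie2 per the submitters' processing notes, a tool that does not align across introns; Abca7 has 47 exon blocks of 144 bases on average, and Cd2ap has 15 of 1058 bases, so their order per kb carries that limit. The genes also differed in how much they varied between mice. Fermt2 had the smallest coefficient of variation over the 15 libraries, 6.15%, and Mef2c the largest of the 8 genes above 10 CPM, 17.2%. Rin3 and Cass4 varied by 24.1% and 25.3%, on 39 to 133 and 8 to 31 counts per library.

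**Figure D1:**
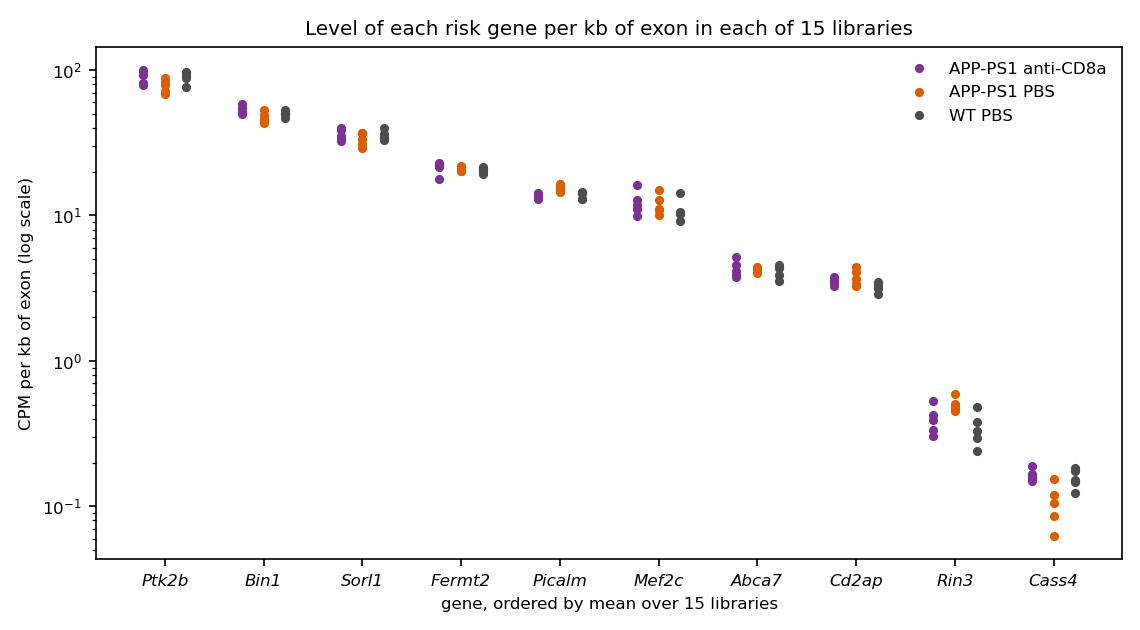
CPM per kb of exon (log axis) of each gene in the 15 libraries, 1 point per mouse, with APP-PS1 anti-CD8a, APP-PS1 PBS and WT PBS side by side; genes run from the highest mean (Ptk2b, 86.0 CPM per kb) to the lowest (Cass4, 0.142 CPM per kb). The range from the highest to the lowest gene is far larger than the differences between groups within a gene. Some neighbouring genes, such as Abca7 and Cd2ap, are close.

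The first comparison, APP-PS1 against WT mice given PBS, concerns the transgenes. None of the 10 genes passed an adjusted p of 0.05 in edgeR's quasi-likelihood test, where 1.03% of all genes tested did; DESeq2 also called none. At an unadjusted p of 0.05, 4 of 10 were below the threshold, against 11.5% of all genes tested. DESeq2 put 3 of 10 below it, and edgeR without the 5 libraries high in Ttr put 2 of 10. With sex read from sex-linked transcripts, without the sex covariate or without the low-count filter, edgeR put 5 of 10 below it. The share over all genes was taken from the main fit only. Of the 4 in the main fit, the 3 higher ones stand against 5.43% of all genes tested, and the 1 lower one against 6.02%. Rin3, Picalm and Cd2ap had these higher estimates, and Cass4 the lower one. The median log2 fold change of the 10 genes was 0.012, against -0.011 over all genes tested. Picalm was the only gene of the 10 whose 2 groups did not overlap, where 2.89% of all genes tested had groups that did not overlap.

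The second comparison, APP-PS1 mice given anti-CD8a against APP-PS1 mice given PBS, concerns the antibody. Again none of the 10 genes passed, in a comparison where edgeR called 0 genes, 0% of all genes tested. DESeq2 called 143 genes but none of the 10. At an unadjusted p of 0.05, 4 of 10 were below the threshold in edgeR, against 13.3% of all genes tested. DESeq2 put 5 of 10 below it, and its own share over all genes was not taken. Of the 4 in edgeR, Bin1, Ptk2b and Cass4 had the 3 higher estimates, against 7.59% of all genes tested. Picalm had the 1 lower one, against 5.74%. The median log2 fold change was 0.035 for the 10 genes and 0.015 over all genes tested. Picalm was once more the only gene without overlap between the groups, against 1.8% of all genes tested.

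The third comparison set APP-PS1 mice given anti-CD8a against WT mice given PBS, groups that differ in genotype and injection together. None of the 10 genes passed in edgeR or DESeq2, against 1.94% of all genes tested in edgeR. None was below an unadjusted p of 0.05 either, in edgeR or in DESeq2, against 12.1% of all genes tested in edgeR. The groups overlapped in all 10 genes, where 3.04% of all genes tested did not overlap. The estimates lay between -0.015 (Picalm) and 0.26 (Rin3) on the log2 scale, with a median of 0.061 against -0.0032 over all genes tested. The 3 comparisons share groups: APP-PS1 mice given PBS enter the first 2 on opposite sides, so an unusual level in those 5 libraries appears in both with opposite signs. In bulk tissue, fewer cells of a type and less RNA per cell cannot be told apart.

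**Figure D2:**
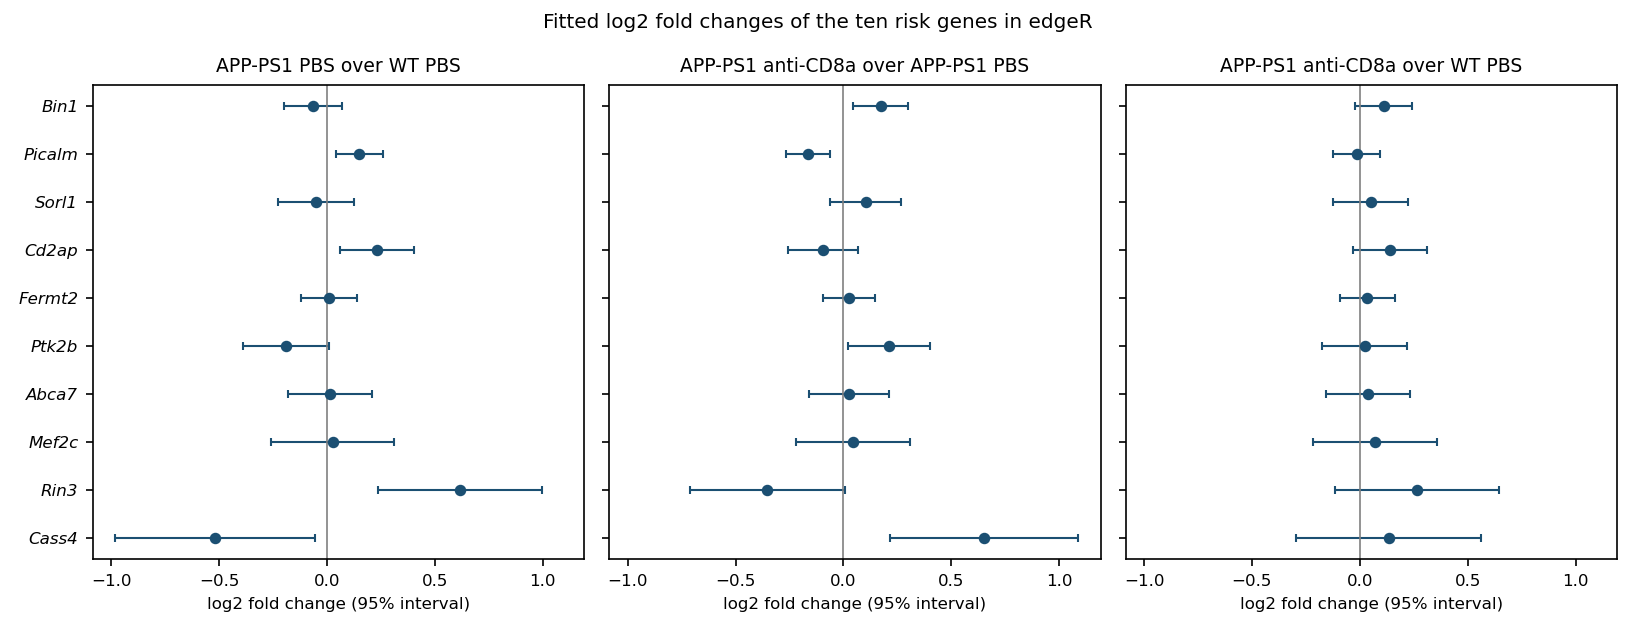
Fitted log2 fold change (point) and 95% interval (bar) of each gene in edgeR for APP-PS1 PBS over WT PBS, APP-PS1 anti-CD8a over APP-PS1 PBS, and APP-PS1 anti-CD8a over WT PBS. Intervals are narrow for Picalm and Bin1 and wide for Rin3 and Cass4, and in the third panel all 10 include 0.

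Picalm, the clathrin assembly protein that binds membrane phosphoinositides and sets the size of coated pits, had the clearest pattern of the 10 genes. It was at 215, 219, 213, 225 and 205 CPM in treated APP-PS1 mice. APP-PS1 mice given PBS had 229, 239, 260, 230 and 249 CPM, and WT mice had 228, 204, 205, 223 and 223 CPM. All 5 APP-PS1 PBS libraries were above all libraries of both other groups, the lowest of them by a narrow margin over WT replicate 1. The means were 215 ± 7.50 CPM in treated APP-PS1 mice, 241 ± 13.2 CPM in APP-PS1 mice given PBS and 217 ± 11.0 CPM in WT mice (SD, n = 5 each). APP-PS1 mice given PBS over WT mice gave a log2 fold change of 0.15 (SE 0.051, 95% interval 0.041 to 0.26); the adjusted p was 0.263 in edgeR, and the fold was 1.11. Treated over PBS-given APP-PS1 mice gave -0.16 (SE 0.048, 95% interval -0.27 to -0.062, adjusted p = 0.237 in edgeR; 0.0594 in DESeq2), a fold of 0.892. Both intervals exclude 0, and neither estimate passed the adjustment over all genes tested. Treated over WT mice gave -0.015 (95% interval -0.12 to 0.094). The highest Picalm values belonged to APP-PS1 PBS replicates 3 and 5, which were also the shallowest libraries of the series, with 23983388 and 17736524 counts; the part of depth in the result was not tested. Without the 5 libraries high in Ttr the genotype estimate was 0.12, with an unadjusted p of 0.204 in edgeR (0.00998 with all libraries). The treatment estimate was then -0.16, with an unadjusted p of 0.0457 in edgeR (0.00370 with all libraries). Picalm lies at chr7:90130213-90213465 on the plus strand (GRCm38) with 21 exon blocks.

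Rin3 encodes an exchange factor that activates Rab5 on early endosomes. Its levels were 2.90, 3.60, 2.69, 2.06 and 2.28 CPM in treated APP-PS1 mice, 3.17, 3.36, 3.47, 4.06 and 3.09 CPM in APP-PS1 mice given PBS, and 3.29, 2.03, 2.60, 1.65 and 2.25 CPM in WT mice. The PBS-given APP-PS1 libraries lay in a narrow band at the top, and WT replicate 1 and treated replicate 2 reached into it. The genotype estimate on the log2 scale was 0.62 (SE 0.18, 95% interval 0.23 to 1.00, adjusted p = 0.163 in edgeR; 0.0628 in DESeq2), a fold of 1.53. It was 0.89 without the 5 libraries high in Ttr (unadjusted p = 0.00719 in edgeR). Treated over PBS-given APP-PS1 mice gave -0.35 (SE 0.17, 95% interval -0.71 to 0.0055, adjusted p = 0.380 in edgeR), and treated over WT mice gave 0.26 (SE 0.18, 95% interval -0.11 to 0.64). Rin3 is expressed by microglia, among other cells. The sum of 14 microglial markers was 694 to 1380 CPM in treated APP-PS1 mice, 717 to 1025 CPM in APP-PS1 mice given PBS and 455 to 537 CPM in WT mice. Of these markers 11 of 14 were called higher by genotype, 0 of 14 by treatment and 13 of 14 in treated over WT mice; none was at 0 in all libraries. The part of the microglial markers in the Rin3 estimates was not tested. Treated replicate 3, the library highest in Cst7, had a middle Rin3 value of its group, 2.69 CPM. APP-PS1 PBS replicate 4, the highest of its own group in Cst7 (31.6 CPM), had the highest Rin3 value of the series, 4.06 CPM. Rin3 lies at chr12:102283048-102390855 on the plus strand (GRCm38, as for the places below).

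Cd2ap, a scaffold that ties endocytic membranes and adhesion receptors to actin, had 57.0, 52.1, 60.0, 54.4 and 56.0 CPM in treated APP-PS1 mice. It had 52.2, 57.7, 65.0, 53.9 and 70.2 CPM in APP-PS1 mice given PBS and 52.7, 50.1, 46.1, 50.0 and 55.0 CPM in WT mice. The spread was widest in APP-PS1 mice given PBS, where replicates 3 and 5 were high and replicates 1 and 4 lay within the WT range. The log2 fold change by genotype was 0.23 (SE 0.081, 95% interval 0.061 to 0.40, adjusted p = 0.271 in edgeR). Without the libraries high in Ttr it was 0.14 (unadjusted p = 0.202 in edgeR). Treatment gave -0.095 (SE 0.077, adjusted p = 0.590), and treated over WT mice gave 0.14 (SE 0.081, adjusted p = 0.529). Cd2ap lies at chr17:42792951-42876665 on the minus strand.

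Bin1 encodes amphiphysin 2, a BAR-domain protein that senses and bends membranes. It was at 213, 210, 241, 207 and 224 CPM in treated APP-PS1 mice, 202, 189, 183, 219 and 177 CPM in APP-PS1 mice given PBS, and 208, 217, 204, 191 and 205 CPM in WT mice. Treated replicates 3 and 5 were above every other library of the series, and APP-PS1 PBS replicate 4 overlapped with the treated group. Treated over PBS-given APP-PS1 mice gave 0.17 on the log2 scale (SE 0.060, 95% interval 0.046 to 0.30, adjusted p = 0.280 in edgeR). It was 0.10 without the 5 libraries high in Ttr (unadjusted p = 0.171 in edgeR). By genotype the estimate was -0.063 (SE 0.063, adjusted p = 0.744), and treated over WT mice gave 0.11 (SE 0.063, adjusted p = 0.517).

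Sorl1, the sorting receptor that carries the amyloid precursor protein with retromer from endosomes back to the Golgi, showed no separation between groups. It was at 365 to 451 CPM in treated APP-PS1 mice, 328 to 420 CPM in APP-PS1 mice given PBS and 371 to 453 CPM in WT mice. Its estimates were -0.052 (SE 0.083) by genotype, 0.10 (SE 0.078) by treatment and 0.050 (SE 0.082) in treated over WT mice. The interval for treatment, -0.063 to 0.27, leaves room for a difference of the size seen in Bin1. Sorl1 lies at chr9:41964720-42124297 on the minus strand, in 49 exon blocks.

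**Figure D3:**
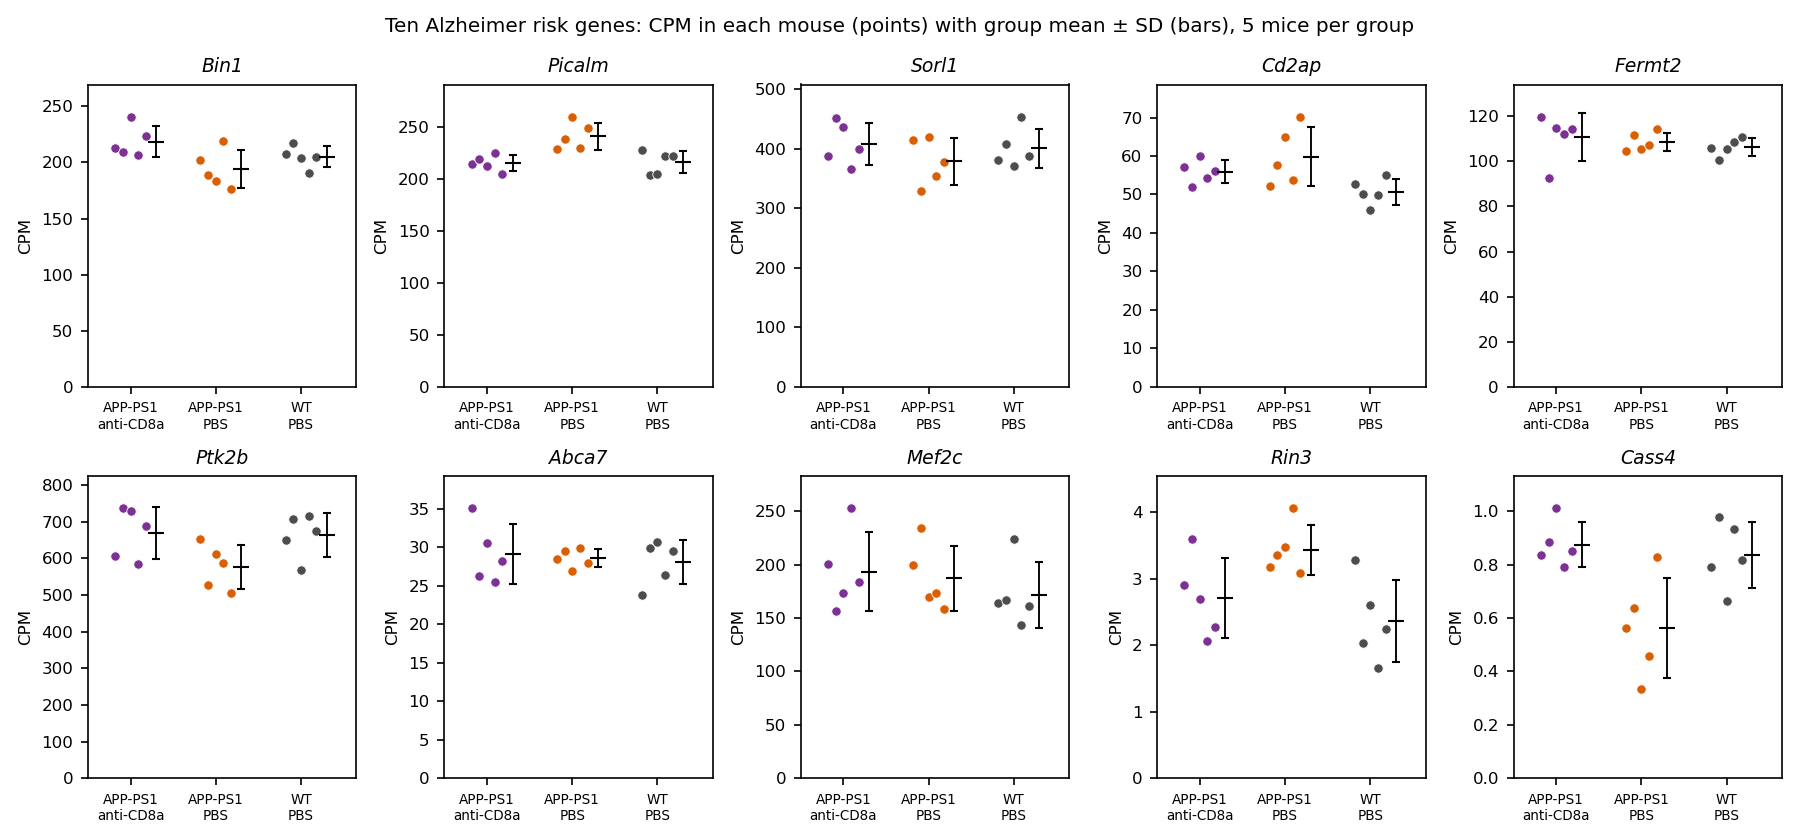
CPM of the 10 genes in each mouse (points), with the group mean and SD (bars, n = 5), for APP-PS1 anti-CD8a, APP-PS1 PBS and WT PBS from left to right. Picalm is the gene whose APP-PS1 PBS points (229 to 260 CPM) all lie above the other groups; in the other 9 genes the points overlap in every comparison.

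Among the adhesion genes, Fermt2 was the steadiest. It encodes kindlin-2, which binds integrin tails and activates integrins with talin. It was at 92.5 to 120 CPM in treated APP-PS1 mice, 105 to 114 CPM in APP-PS1 mice given PBS and 101 to 111 CPM in WT mice. The estimates were 0.0092 (SE 0.060) by genotype, 0.025 (SE 0.057) by treatment and 0.034 (SE 0.061) in treated over WT mice. The lowest bound of their 95% intervals was -0.12 and the highest 0.16. Fermt2 and Ptk2b lie on the same chromosome, at chr14:45458795-45530118 and chr14:66153257-66281052, both on the minus strand.

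Ptk2b, which relays integrin and calcium signals at synapses, was at 605, 736, 730, 585 and 687 CPM in treated APP-PS1 mice. It was at 654, 527, 611, 587 and 505 CPM in APP-PS1 mice given PBS and at 651, 707, 568, 717 and 675 CPM in WT mice. APP-PS1 PBS replicates 2 and 5 were the lowest libraries of the series, and both are high in Ttr. The other libraries high in Ttr had 605 CPM (treated replicate 1), 568 CPM (WT replicate 3) and 675 CPM (WT replicate 5). The treatment estimate on the log2 scale was 0.21 (SE 0.089, 95% interval 0.023 to 0.40, adjusted p = 0.333 in edgeR). Without the 5 libraries high in Ttr it was 0.12 (unadjusted p = 0.178 in edgeR). By genotype it was -0.19 (SE 0.094, 95% interval -0.39 to 0.011, adjusted p = 0.462), and -0.10 without those libraries. Treated over WT mice gave 0.023 (SE 0.093). The 12 neuronal markers summed to 10252 to 11557 CPM in treated APP-PS1 mice, 9965 to 10698 CPM in APP-PS1 mice given PBS and 10581 to 11316 CPM in WT mice, and their part in the Ptk2b estimates was not tested.

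Cass4 encodes a Cas-family scaffold that docks focal adhesion kinases. It had the lowest counts of the 10 genes, 23 to 31 per library in treated APP-PS1 mice, 8 to 18 in APP-PS1 mice given PBS and 22 to 29 in WT mice. In CPM these were 0.834, 0.885, 1.01, 0.791 and 0.852 in treated APP-PS1 mice, 0.562, 0.636, 0.335, 0.458 and 0.828 in APP-PS1 mice given PBS, and 0.790, 0.979, 0.664, 0.932 and 0.816 in WT mice. Of the APP-PS1 libraries given PBS, 4 were below all treated and all WT libraries, and replicate 5 was not. Treated over PBS-given APP-PS1 mice gave 0.65 on the log2 scale (SE 0.21, 95% interval 0.22 to 1.09, adjusted p = 0.251 in edgeR), a fold of 1.57; DESeq2 gave no adjusted p for it in this comparison. By genotype it was -0.52 (SE 0.22, 95% interval -0.98 to -0.056, adjusted p = 0.376), and treated over WT mice gave 0.13 (SE 0.20, adjusted p = 0.848). Without the 5 libraries high in Ttr the estimates were 0.92 by treatment and -0.88 by genotype (unadjusted p = 0.00364 and 0.0155 in edgeR). Cass4 lies at chr2:172393794-172433757 on the plus strand. An antisense gene, Gm14455, covers 21.2% of the exon bases of Cass4. The library kit marks strand, but no source used here says whether the counting used it, so reads of the pair could be exchanged; Gm14455 held 184 counts over the 15 libraries. Smaller overlaps exist for Bin1 (A830052D11Rik, 6.22% of exon bases) and Sorl1 (Gm16214, 1.63%).

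Abca7 and Mef2c act outside both pathways. Abca7, a transporter that moves phospholipids across membranes and aids phagocytosis, was at 25.5 to 35.1 CPM in treated APP-PS1 mice, 27.0 to 30.0 CPM in APP-PS1 mice given PBS and 23.8 to 30.7 CPM in WT mice. Its estimates on the log2 scale were 0.014 (SE 0.092) by genotype, 0.025 (SE 0.087) by treatment and 0.039 (SE 0.092) in treated over WT mice. Mef2c, a transcription factor of neurons and microglia, was at 157 to 253 CPM in treated APP-PS1 mice, 159 to 234 CPM in APP-PS1 mice given PBS and 143 to 224 CPM in WT mice. Its estimates were 0.026 (SE 0.13) by genotype, 0.045 (SE 0.12) by treatment and 0.071 (SE 0.14) in treated over WT mice. The spread of Mef2c within each group was larger than any difference between group means. Abca7 lies at chr10:79996494-80015572 and Mef2c at chr13:83504034-83667080, both on the plus strand.

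The 10 genes were also compared with each other across the 15 mice, in 45 pairs of log2 CPM, of which 22 had a positive correlation. Benjamini-Hochberg adjustment was over the 45 pairs. The permutations shuffled all 15 libraries without regard to group, so differences between groups enter these p values. No p was computed for the group-centred r. Sorl1 and Ptk2b varied together, with Pearson r = 0.80 (permutation p = 0.00045, adjusted 0.0202) and Spearman rho = 0.86 (adjusted permutation p = 0.0063). Without the 2 libraries farthest from the median of Sorl1, r was 0.72. With each group centred on its own mean it was 0.78, and among the 10 libraries low in Ttr it was 0.81. Bin1 and Picalm varied in opposite directions, with Pearson r = -0.75 (permutation p = 0.0014, adjusted 0.0315) and Spearman rho = -0.67 (adjusted permutation p = 0.0951). Without the 2 farthest libraries r was -0.73, with groups centred -0.65, and among the libraries low in Ttr -0.73. No other pair passed an adjusted p of 0.05. Picalm and Cd2ap, both high in APP-PS1 PBS replicates 3 and 5, had r = 0.68 (adjusted permutation p = 0.0919) but 0.28 without the 2 farthest libraries, so that relation rests on those libraries. In each group the library highest in Mef2c (treated replicate 4, APP-PS1 PBS replicate 2 and WT replicate 3) was the lowest in Sorl1. Over the 15 libraries that pair had r = -0.63 (adjusted permutation p = 0.108), so it did not pass, and r was -0.40 without the 2 farthest libraries. The values share library, depth and scaling.

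**Figure D4:**
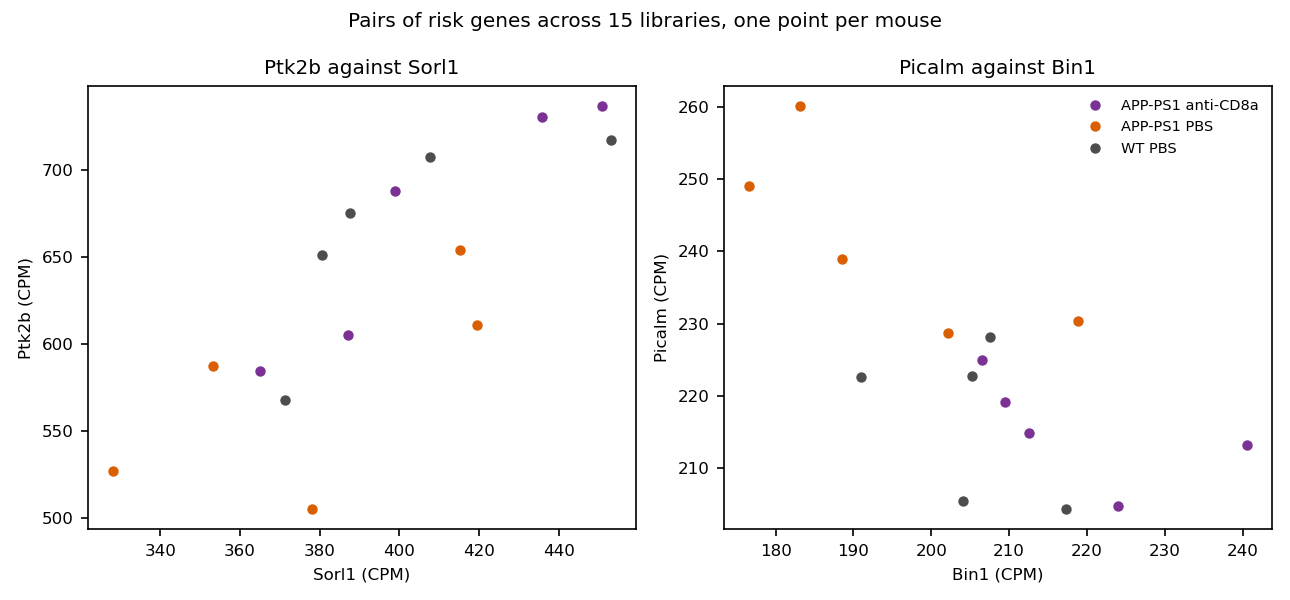
Ptk2b against Sorl1 (left) and Picalm against Bin1 (right), both in CPM, 1 point per mouse and coloured by group. Ptk2b is high where Sorl1 is high (r = 0.80 on log2 CPM), and Picalm is high where Bin1 is low (r = -0.75). APP-PS1 PBS replicates 2, 3 and 5 lie at the upper left of the right panel. APP-PS1 PBS replicates 1 and 4 lie further right, at Bin1 levels found in the other groups.

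The genes most like Picalm and Cass4 were sought among the 15682 or 15683 genes with a mean of at least 1 CPM, by Pearson r of log2 CPM over the 15 libraries. For Picalm they were Rb1cc1 (r = 0.94, rho = 0.89), Nxt2 (r = 0.93, rho = 0.91) and Pnpla8 (r = 0.90, rho = 0.84). For Cass4 they were March4 (r = 0.82, rho = 0.84), Slc35c1 (r = 0.80, rho = 0.68) and Nr2e1 (r = 0.77, rho = 0.70). These are the highest of all genes compared and are given as a description.

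The wider pathways were read from 4 lists. Over all genes tested, edgeR called 1.03% by genotype, 0% by treatment and 1.94% in treated over WT mice. In the same order, 11.5%, 13.3% and 12.1% were below an unadjusted p of 0.05 in edgeR. The edgeR counts below are to be read against these shares, and no difference from them was tested. DESeq2 called 361 of the 18974 genes by genotype and 143 by treatment, so the edgeR shares do not serve for its calls. Of 42 genes of the clathrin coat and its accessory proteins, edgeR called 0 in any comparison. Their median log2 fold changes were -0.015 by genotype, 0.020 by treatment and -0.015 in treated over WT mice. At an unadjusted p of 0.05 they held 6, 8 and 2 genes in edgeR. That is near the share over all genes by genotype, above it by treatment and below it in treated over WT mice. DESeq2 called 1 of them, the sorting nexin Snx18, higher in treated over WT mice, with an edgeR log2 difference of 0.31 (SE 0.080, adjusted p = 0.0677). Of 36 genes of early endosomes, retromer and sorting, edgeR called 0 as well, with medians of -0.039 by genotype, -0.018 by treatment and -0.064 in treated over WT mice. They held 3, 7 and 5 genes at an unadjusted p of 0.05 in edgeR. That is below the share over all genes by genotype, above it by treatment and near it in treated over WT mice. By treatment these were 1 higher and 6 lower. DESeq2 called the sorting nexin Snx5 higher by genotype (0.18, SE 0.050, adjusted p = 0.130 in edgeR) and the retromer subunit Vps26a lower by treatment (-0.15, SE 0.037, adjusted p = 0.223 in edgeR). These 3 were named because DESeq2 called them, after their values were seen. Of 36 genes of integrin adhesion, edgeR called 1 higher and 1 lower by genotype, 0 by treatment and 2 higher in treated over WT mice. Their medians were 0.014, 0.0035 and 0.020. In edgeR 8, 12 and 9 of the 36 were below an unadjusted p of 0.05, each above the share over all genes. These were 5 higher and 3 lower by genotype, 7 and 5 by treatment, and 8 and 1 in treated over WT mice. DESeq2 called 2 higher and 1 lower by genotype, 0 by treatment and 4 higher in treated over WT mice. Of 25 relatives of the 10 genes, 24 were tested; edgeR called 0 by genotype, 0 by treatment and 2 higher in treated over WT mice. Their medians were 0.016, 0.036 and 0.0012, with 5, 3 and 5 of the 24 below an unadjusted p of 0.05 in edgeR. The count by treatment was at the share over all genes, and the others were above it. DESeq2 called 1 relative higher by genotype, 0 by treatment and 3 higher in treated over WT mice. The medians over all genes tested were -0.011, 0.015 and -0.0032.

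Both relatives that rose are blood-lineage counterparts of genes on the list. Bin2, a BAR-domain protein of leukocytes and microglia related to Bin1, had 6.71, 7.88, 9.06, 7.33 and 6.68 CPM in treated APP-PS1 mice and 7.17, 5.48, 6.27, 8.69 and 7.07 CPM in APP-PS1 mice given PBS, against 6.10, 5.22, 4.94, 5.47 and 5.57 CPM in WT mice. All treated libraries were above all WT libraries. Treated over WT mice gave 0.54 on the log2 scale (SE 0.11, adjusted p = 0.0157 in edgeR), where Bin1 itself gave 0.11. Fermt3, the kindlin of blood cells and a relative of Fermt2, had 6.74, 6.53, 8.76, 5.33 and 5.80 CPM in treated APP-PS1 mice and 6.05, 5.44, 4.35, 7.32 and 5.19 CPM in APP-PS1 mice given PBS, against 4.80, 4.57, 4.62, 4.02 and 4.19 CPM in WT mice. Its treated libraries too were all above the WT libraries. Treated over WT mice gave 0.67 (SE 0.13, adjusted p = 0.0124 in edgeR), where Fermt2 gave 0.034. By genotype Bin2 gave 0.43 (adjusted p = 0.101 in edgeR) and Fermt3 0.45 (adjusted p = 0.174), and by treatment 0.12 (adjusted p = 0.642) and 0.21 (adjusted p = 0.460), so neither passed there in edgeR. DESeq2 called Bin2 by genotype too. The calls rest on treated replicate 3: without it the adjusted p was 0.121 for Bin2 (log2 fold change 0.48) and 0.114 for Fermt3 (0.55). They also missed the threshold without the sex covariate, at adjusted p = 0.0713 for Bin2 and 0.0534 for Fermt3. The microglial marker sums given beside Rin3 lay above the WT range in both APP-PS1 groups. Whether Bin2 and Fermt3 follow these sums from library to library was not tested, nor was the part of those markers.

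The nearest relatives of the other genes did not pass in edgeR. Snap91, the neuronal relative of Picalm, gave log2 fold changes of 0.017 by genotype, -0.0086 by treatment and 0.0080 in treated over WT mice. Sort1, a sorting receptor related to Sorl1, gave -0.047, 0.099 and 0.051 in the same order. Ptk2, the focal adhesion kinase related to Ptk2b, gave -0.074, -0.012 and -0.086. All 3 stayed close to 0 in every comparison. Rin2, which like Rin3 acts on Rab5, gave 0.094, -0.29 and -0.19, and Sh3kbp1, the relative of Cd2ap, gave 0.085, -0.090 and -0.0056. Nedd9, a Cas-family relative of Cass4, gave 0.071, -0.13 and -0.054. Abca1, a cholesterol exporter related to Abca7, gave 0.22, 0.071 and 0.29, with an adjusted p of 0.0631 in treated over WT mice in edgeR; DESeq2 called it there. Mef2d, a relative of Mef2c, gave -0.15, 0.16 and 0.010.

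Among the integrin genes, Itgb3 and Itga6 encode integrin subunits. Itgb3 had 3.61, 4.71, 7.14, 4.61 and 4.86 CPM in treated APP-PS1 mice and 5.42, 3.85, 4.94, 5.64 and 4.97 CPM in APP-PS1 mice given PBS, against 2.62, 2.57, 2.71, 2.54 and 3.83 CPM in WT mice. All APP-PS1 PBS libraries were above all WT libraries, and treated replicate 1 was below WT replicate 5. On the log2 scale Itgb3 rose by genotype by 0.82 (SE 0.18, adjusted p = 0.0358 in edgeR) and in treated over WT mice by 0.82 (SE 0.18, adjusted p = 0.0209). It stayed past the threshold without the libraries high in Ttr, at 1.21 and 1.15. Without treated replicate 3 the estimate in treated over WT mice was 0.61 (adjusted p = 0.157), and that call was also lost without any 1 of WT replicates 1 to 4 and in a fit of the 2 groups alone (0.81, adjusted p = 0.0791). The genotype call was lost when treated replicate 5, any 1 of APP-PS1 PBS replicates 1, 3, 4 and 5, or any 1 of WT replicates 1 to 4 was left out (adjusted p up to 0.0912). Itga6 had 40.7, 37.6, 50.5, 49.0 and 43.8 CPM in treated APP-PS1 mice and 38.6, 32.4, 36.5, 34.5 and 46.1 CPM in APP-PS1 mice given PBS, against 29.5, 32.2, 32.4, 36.3 and 34.0 CPM in WT mice. The treated libraries were all above the WT libraries. It rose in treated over WT mice by 0.45 (SE 0.10, adjusted p = 0.0308 in edgeR), and without treated replicate 3 it gave 0.37 (adjusted p = 0.246). The call was also lost without treated replicate 4 or 5, without any 1 of WT replicates 1 to 3, without the libraries high in Ttr (0.42, adjusted p = 0.154), and in a fit of the 2 groups alone (0.42, adjusted p = 0.0600).

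Git1, an adaptor that joins paxillin to Arf and Rac signalling, fell by genotype. It had 292, 261, 316, 292 and 284 CPM in treated APP-PS1 mice and 234, 254, 231, 286 and 213 CPM in APP-PS1 mice given PBS, against 301, 310, 295, 301 and 316 CPM in WT mice. Every APP-PS1 PBS library was below every WT library. The log2 fold change by genotype was -0.32 (SE 0.072, adjusted p = 0.0459 in edgeR). The call did not hold without the 5 libraries high in Ttr, where the estimate was -0.20 (adjusted p = 0.940), or in a fit of the 2 groups alone (-0.32, adjusted p = 0.104). It was also lost in 12 of 15 fits that left out 1 library (adjusted p up to 0.177), and held without treated replicates 2 or 3 or APP-PS1 PBS replicate 4. Treated over PBS-given APP-PS1 mice gave 0.24 (SE 0.069, adjusted p = 0.229).

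**Figure D5:**
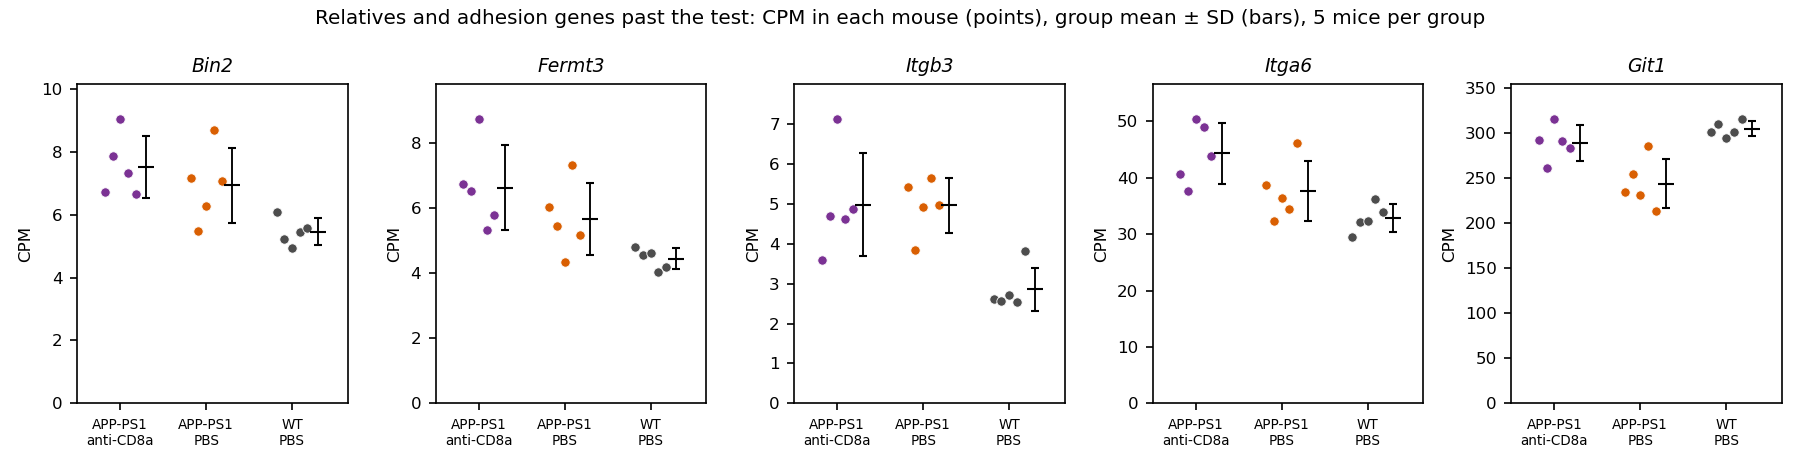
CPM of the 5 genes of the lists that passed the test in a comparison, in each mouse (points) with group mean and SD (bars, n = 5), for APP-PS1 anti-CD8a, APP-PS1 PBS and WT PBS from left to right. Bin2, Fermt3 and Itga6 are above the WT range in all 5 treated mice, Itgb3 and Git1 are outside it in all 5 APP-PS1 PBS mice, and treated replicate 3 is the highest treated mouse in all 5 panels.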

How the data were processed

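Poly(A) RNA of 15 mice was sequenced with a stranded kit, per the labels' protocols. The authors deposited raw read counts per gene (46078 Ensembl genes, unit counts). The submitters' processing notes name FastQC, Bowtie2 2.2.2, HTSeq 0.11.2, DESeq2 and build GRCm38; no source used here gives further settings. Lines that name no gene entered neither library sizes nor tests; reads without a feature stood for 20.0 to 25.9% per library. Symbols matched 45143 identifiers, and gene places and exon lengths come from GENCODE M21 (GRCm38).

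Groups follow the labels, and each library is 1 mouse; counts of the 30 pairs of libraries within groups differed beyond sampling noise (chi-square divided by degrees of freedom, 7.94 to 39.4). CPM were computed here with TMM scaling. Tests were two-sided quasi-likelihood tests (glmQLFit, glmQLFTest; edgeR 4.0.16, R 4.3.3). The model held group and labelled sex over all 15 libraries, with 11 residual degrees of freedom, and filterByExpr kept 18974 genes. Benjamini-Hochberg adjustment ran over all genes tested, with a threshold of 0.05. Standard errors and 95% intervals derive from the F statistic. The fit was checked on simulated counts. Pair correlations took log2 CPM (prior count 2) and 100000 permutations (scipy 1.17.1), and were added after the data were seen. Figures used matplotlib 3.10.9.

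The 10 genes and the lists were chosen with earlier results of these data known. Named were the 10 genes, every gene of the 4 lists past the threshold, the closest relatives, and the 3 genes most like each of the 3 members of smallest p; those for Rin3 are not reported here. Alternatives were DESeq2 1.42.0, other size factors and filters, other covariates, pairs of groups alone, and leaving out libraries.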

Additional observations from a re-analysis of the deposited data

Results flagged for a closer look

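In 3 of the 45 sets of 5 libraries examined (15 genes in 3 groups), 1 library lay far from the others of its group by Dixon's criterion (0.71 for 5 libraries); chance flags about 1 in 20 groups. Fermt2 was at 92.5 CPM in treated APP-PS1 replicate 2, and the other treated mice were at 112 to 120 CPM. Mef2c was at 224 CPM in WT replicate 3, one of the libraries high in Ttr, and the other WT mice were at 143 to 166 CPM. Itgb3 was at 3.83 CPM in WT replicate 5, also high in Ttr, and the other WT mice were at 2.54 to 2.71 CPM.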

How the results depend on the processing

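None of the 10 genes was called in any comparison under any alternative. Over all genes the numbers called moved: DESeq2 called 361 by genotype and 143 by treatment, where edgeR called 195 and 0. Without a filter 13 were called by treatment, and with the 2 groups alone 1 by treatment and 221 in treated over WT mice (369 with all libraries). Without the sex covariate 115 were called by genotype, and without the libraries high in Ttr 98 by genotype and 199 in treated over WT mice. Leaving out 1 library gave 145 to 253 by genotype, 0 to 3 by treatment and 140 to 441 in treated over WT mice, the lowest without treated replicate 3.

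Estimates near 0 changed sign, with the cause not tested. Without the libraries high in Ttr, Bin1 was 0.048 and Fermt2 -0.027 by genotype, and Abca7 -0.068 by treatment; with the animal number series as a covariate Abca7 was -0.0056 by genotype. Leaving out 1 library gave, by genotype, Abca7 -0.034 to 0.046, Fermt2 -0.034 to 0.030, Mef2c -0.098 to 0.14 and Sorl1 -0.090 to 0.00090. By treatment it gave Abca7 -0.051 to 0.074, Fermt2 -0.0034 to 0.085 and Mef2c -0.050 to 0.12. In treated over WT mice it gave Abca7 -0.019 to 0.086, Fermt2 -0.0051 to 0.11, Mef2c -0.054 to 0.19, Picalm -0.034 to 0.0029 and Ptk2b -0.027 to 0.056. Of 24 alternatives, the call was lost in 14 for Git1, in 9 for Itgb3 by genotype and 6 in treated over WT mice, in 8 for Itga6, and in 2 each for Bin2 and Fermt3. No paired analysis was possible because each library is 1 mouse and no animal number in the labels is shared between groups. Depth limits Cass4 and Rin3 most, at 8 to 31 and 39 to 133 counts per library.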
